A study of Mus musculus with 45 samples.

Results

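This comparison follows the first day of forelimb bud culture without the test compound. It sets 5 control libraries taken after 24 h against 5 control libraries taken after 3 h, which are 10 of the 45 libraries of the series. They were chosen by their labels, as the libraries of the deposited table that pairs the control cultures at these times. Each library is poly-A RNA from CD1 mouse forelimb buds taken on gestation day 13 and kept in glass bottles of gassed medium with the solvent DMSO. The rest of the series holds 5 libraries for each other time and dose (3, 24 and 48 h; DMSO, 1 or 5 µM bisphenol AF). Limbs of male and female embryos were pooled, so a library stands for a pool of limbs and not for 1 animal. The labels do not say whether the replicates came from separate days, so the p-values measure the spread between these libraries, part of which may be technical.

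At this stage the limb skeleton exists as cartilage models. Chondrocytes secrete type II collagen and aggrecan, stop dividing, enlarge and finally mineralise their matrix, while bone cells form around them. Indian hedgehog from maturing chondrocytes signals through the receptor Patched to the neighbouring cells and sets the pace of this sequence. Around the skeleton, myoblasts fuse into muscle fibres, and the patterning genes of the early bud, many of them driven by retinoic acid, Wnt and Fgf signals, are switched down. A limb in a bottle has no blood flow and no nerve supply from the spinal cord.

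Library totals lay between 15830737 and 19100292 reads. The first principal component held 45.8% of the variance and separated the 24 h from the 3 h libraries, and the correlation of log2 levels was 0.983 to 0.989 within a time and 0.965 to 0.972 between times. The mix of sexes was not even, although the labels describe pooled limbs. Y-linked genes summed to 246.5, 292.4, 321.3, 176.9 and 198.6 CPM (counts scaled to a common library total) in the 24 h libraries, against 76.7, 86.8, 0.105, 155.9 and 81.8 CPM in the 3 h libraries. Every 24 h library thus held more Y-linked reads than every 3 h library, and the mix of sexes cannot be fully told apart from time. Xist was near 0 in 24 h replicates 2 and 3, and Y-linked reads were near 0 in 3 h replicate 3, so 3 libraries held embryos of 1 sex only. Counts between 24 h and 3 h in control were also computed without these 3 libraries and with the Y-linked reads as a covariate. The comparisons with 48 h and with 1 µM, which hold further libraries of this kind, were not. Haemoglobin reads made up 0.119% to 0.251% of the 24 h libraries and 0.199% to 0.310% of the 3 h libraries. In whole limbs, fewer cells of a type and less RNA per cell cannot be told apart.

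Of 16481 genes tested, 6227 differed between the times (37.8%) in edgeR's quasi-likelihood test at a Benjamini-Hochberg adjusted p under 0.05, with 3147 higher (19.1%) and 3080 lower (18.7%) at 24 h. Without the 3 libraries of 1 sex, 4333 were called, and with the Y-linked covariate 5039. Most of the calls were small: 63.5% of them were under 1.5-fold, and the median size was 0.44 on the log2 scale. At 4-fold or more, 72 genes were higher and 51 were lower. The authors' deposited table calls 6361 genes at its own adjusted p under 0.05. Levels below are CPM scaled by TMM, and a fold change is the log2 ratio of 24 h over 3 h with its standard error (SE). A gene is said to rise, fall or be called only where its adjusted p was under 0.05.

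**Figure D1:**
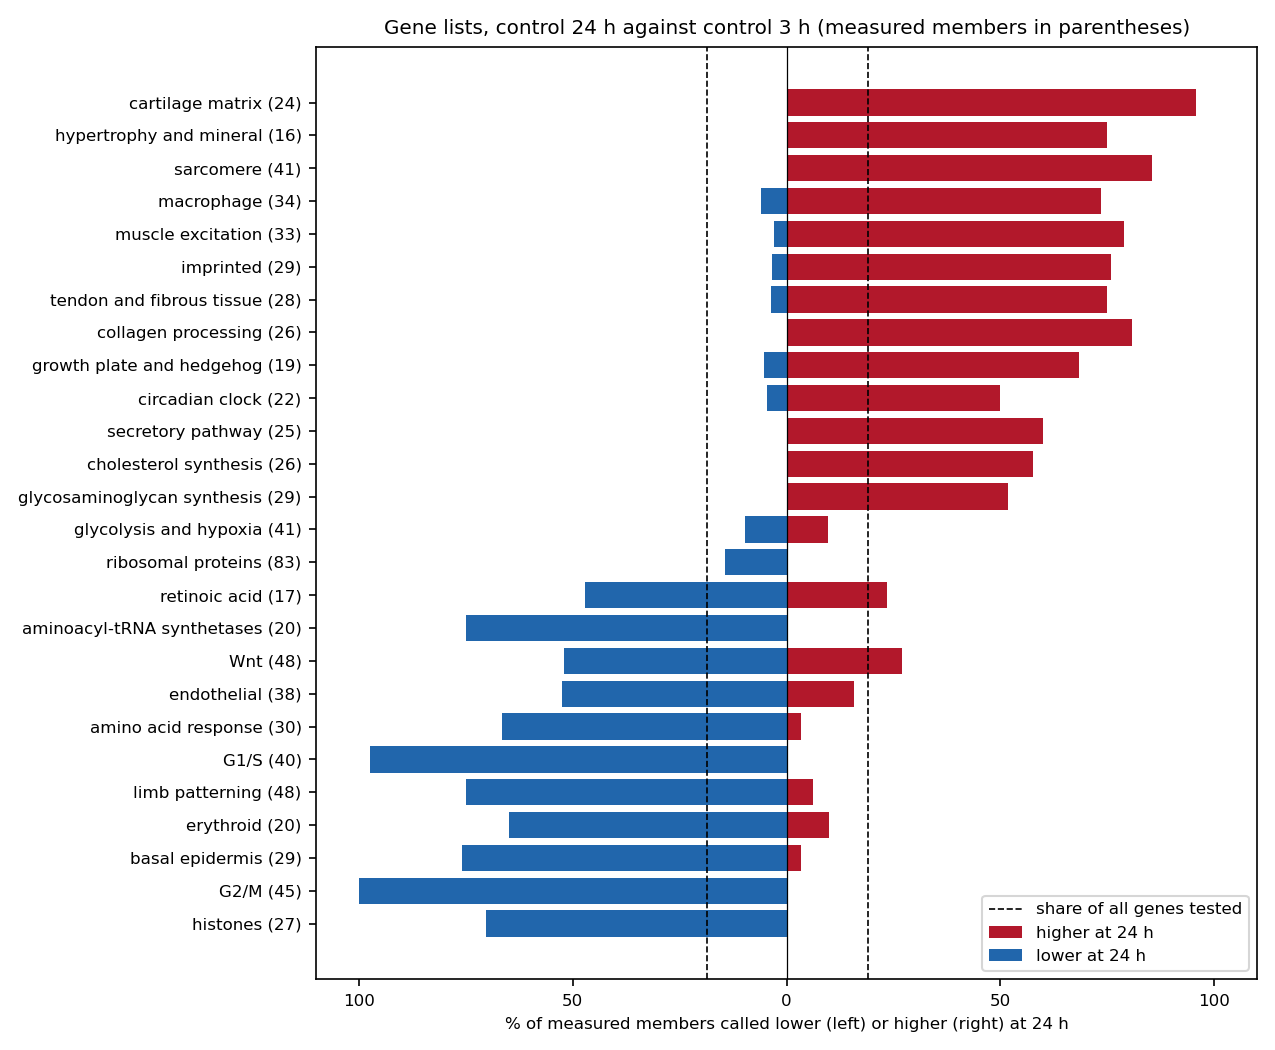
Share of the measured members of 26 of the 60 gene lists called higher (red, right) or lower (blue, left) at 24 h, ordered by the median log2 fold change, with the number of measured members in parentheses and the share of all tested genes as dashed lines (19.1% higher, 18.7% lower). All 45 G2/M genes lay on the lower side and 23 of 24 cartilage matrix genes on the higher side.

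Cartilage matrix genes rose together. Of 24 members, 23 were higher and none lower at 24 h, with a median log2 fold change of 1.63 against -0.01 over all genes. Matn1, which encodes matrilin 1 of the cartilage filament network (mm10 chromosome 4, 130944385 to 130955475), had 520, 465, 422, 514 and 542 CPM in the 24 h libraries, against 103, 100.4, 94.2, 108 and 89.6 CPM in the 3 h libraries. The lowest 24 h library stood far above the highest 3 h library, and the log2 fold change was 2.31 ± 0.07 (adjusted p = 9.2e-13). Col11a2, a chain of the type XI collagen that nucleates cartilage fibrils, averaged 949 ± 86.7 CPM at 24 h and 298 ± 28.2 CPM at 3 h (SD, n = 5 each), a log2 fold change of 1.67 ± 0.07. Hapln1, which links aggrecan to hyaluronan, rose by 1.73 ± 0.07 on the log2 scale, and Cnmd, the chondrocyte gene for chondromodulin, by 1.88 ± 0.09. Ucma, a marker of distal chondrocytes, was near its detection limit at 3 h and rose by 3.89 ± 0.56, but no call remained once Y-linked reads entered as a covariate (2.90, adjusted p = 0.0526). Hapln3 was the member without a call, with 1.95 ± 0.19 CPM at 24 h and 1.93 ± 0.60 CPM at 3 h. Summed over the list, these genes made up 13030 to 15540 CPM at 24 h and 5415 to 5994 CPM at 3 h.

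**Figure D2:**
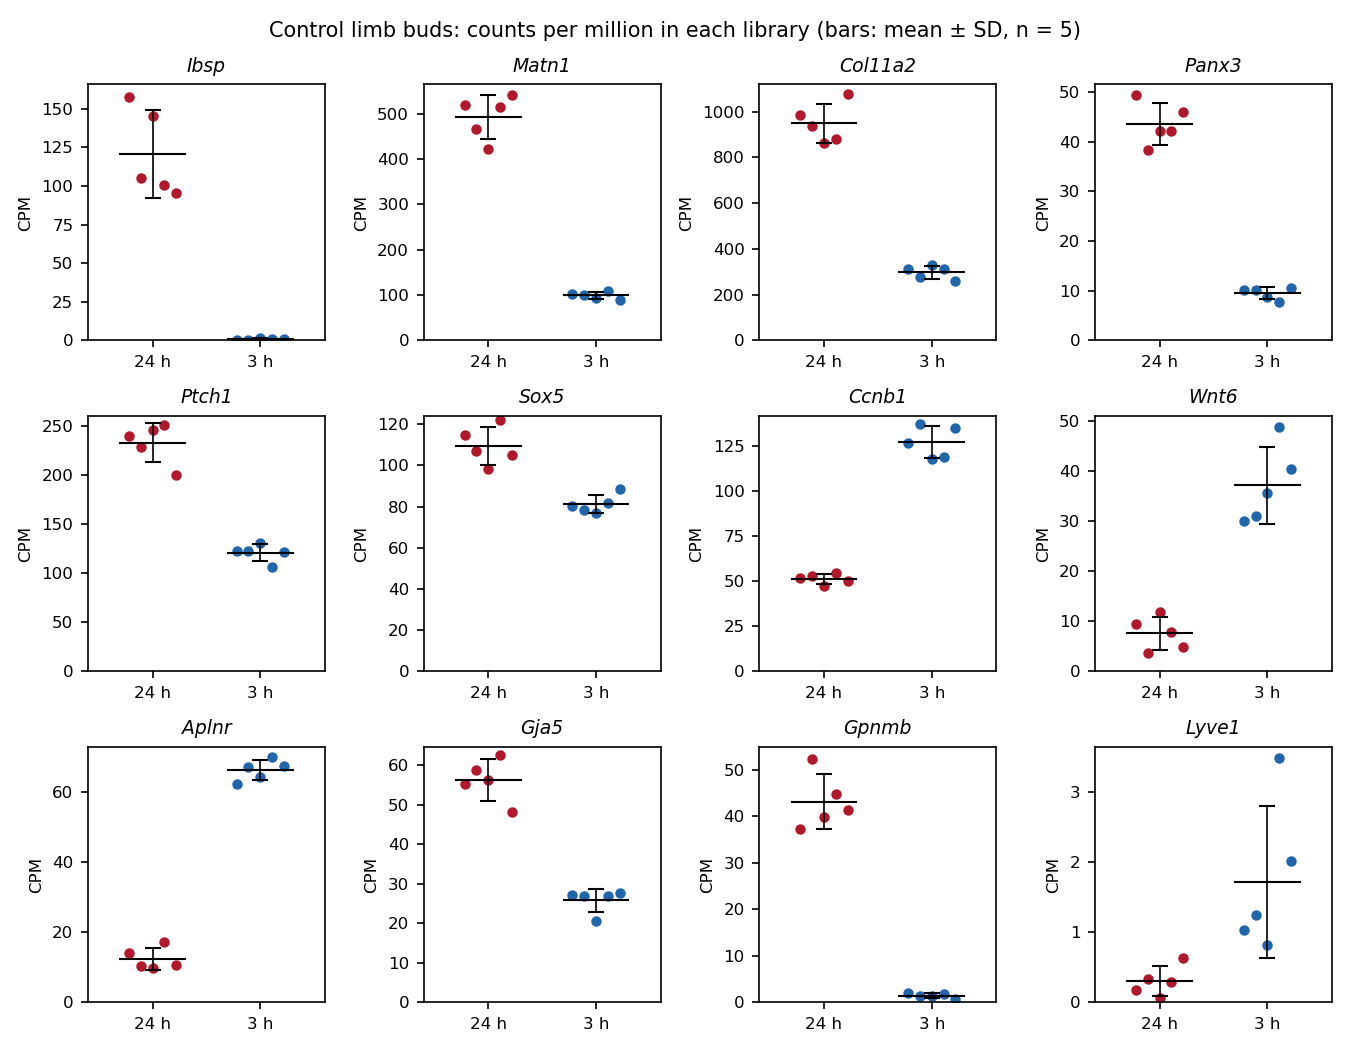
TMM-scaled CPM (vertical axes, starting at 0) of 12 genes in each control library at 24 h (red, left) and 3 h (blue, right), with mean and SD of 5 libraries. These 12 called genes were picked for display, and their groups did not overlap, as in 26.1% of all tested genes. Ibsp reached 95.6 to 158 CPM at 24 h and at most 1.54 CPM at 3 h.

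Many of the enzymes that build and fold this matrix rose. Of 29 genes of glycosaminoglycan synthesis and sulfation, 15 were higher and none lower. Xylt1, which starts chondroitin sulfate chains on aggrecan, rose by 1.16 ± 0.07, Chst11, a chondroitin sulfotransferase, by 0.98 ± 0.06, and Slc35d1, a nucleotide sugar transporter of the Golgi, by 0.62 ± 0.06 on the log2 scale. Of 26 genes of collagen modification and folding, 21 were higher and none lower, among them the crosslinking oxidases Loxl3 at 0.95 ± 0.06 and Loxl1 at 0.79 ± 0.07 and the lysyl hydroxylase Plod2 at 0.55 ± 0.05. Serpinh1, the collagen chaperone HSP47, averaged 1618 CPM at 24 h and 1333 CPM at 3 h, a change of 0.28 ± 0.07. Of 25 genes of the endoplasmic reticulum response and export, 15 were higher and none lower. Creb3l2, which drives the secretory machinery of chondrocytes, rose by 0.68 ± 0.05, Creb3l1, its relative in bone cells, by 0.98 ± 0.08, and Sec24d, a coat protein of collagen export vesicles, by 0.62 ± 0.06. These groups stood above the 19.1% of all genes called higher.

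The collagen genes as a family did not all follow. Of 43 measured collagen genes of 44 on the list, 25 were higher and 6 lower, beside 19.1% higher and 18.7% lower over all genes. Col27a1 rose by 1.39 ± 0.06, Col16a1 by 1.29 ± 0.05 and Col14a1, a collagen of tendon and dermis, by 1.04 ± 0.07. Col1a1, the main chain of bone and dermal collagen, rose by 0.67 ± 0.06, while Col3a1 differed by 0.09 ± 0.05 (adjusted p = 0.18). The falls were in basement membrane and epidermal collagens: Col17a1, an epidermal anchoring collagen, fell by 1.86 ± 0.24, Col18a1 of basement membranes by 0.93 ± 0.07, and Col4a1, a core chain of basement membranes, by 0.30 ± 0.06.

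Among the transcription factors of cartilage, 12 of 21 measured were higher and 4 lower. Sox9, the master regulator of chondrocytes, had 476 ± 51.5 CPM at 24 h and 465 ± 18.6 CPM at 3 h, and its difference of 0.03 ± 0.07 did not pass the test (adjusted p = 0.73). Its partners Sox5 and Sox6 rose by 0.43 ± 0.06 and 0.72 ± 0.08. Sox5 had 115, 107, 98.2, 122 and 105 CPM in the 24 h libraries, against 80.4, 78.3, 77.0, 81.9 and 88.4 CPM in the 3 h libraries, and the groups did not overlap. Mef2c and Foxc2 rose by 1.31 ± 0.07 and 1.04 ± 0.08, Runx2 and Runx3, which drive hypertrophy and bone formation, by 0.73 ± 0.08 and 0.69 ± 0.10. Mef2c is also a muscle gene, so its rise cannot be assigned to cartilage here. Genes of earlier stages fell: Pax1 by 0.69 ± 0.14, Pax9 by 0.66 ± 0.11 and Shox2, which is needed for the proximal limb skeleton, by 0.64 ± 0.07.

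The hedgehog circuit of the growth plate rose at several points. Of 19 genes of the growth plate and of hedgehog signalling, 13 were higher and 1 lower. Ihh, the ligand, had 40.5, 42.8, 38.4, 44.3 and 49.2 CPM in the 24 h libraries, against 24.4, 21.8, 21.3, 23.7 and 24.2 CPM in the 3 h libraries. Every 24 h library was above every 3 h library, and the log2 fold change was 0.90 ± 0.08 (adjusted p = 6.6e-08). Classical target genes of the pathway rose by a like amount. Ptch1, the receptor, rose by 0.95 ± 0.07, the activator Gli1 by 0.80 ± 0.07 and the decoy receptor Hhip by 0.98 ± 0.09. The transducers Gli2 and Gli3 differed by 0.06 ± 0.06 and -0.14 ± 0.08 (adjusted p = 0.51 and 0.17), and Sufu, a repressor of the pathway, fell by 0.26 ± 0.06. Fgfr3 and Npr2, receptors that brake and promote growth plate proliferation, rose by 0.77 ± 0.06 and 0.81 ± 0.06. Pth1r, the receptor of the parathyroid hormone-related loop, was at 139 ± 11.4 CPM at 24 h and 131 ± 14.2 CPM at 3 h (adjusted p = 0.39).

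Genes of hypertrophy and mineral formation rose steeply, and Ibsp had the largest rise of the genes named by size. Of 16 measured members of 20 on that list, 12 were higher and none lower, with a median log2 fold change of 1.42. Ibsp, bone sialoprotein, which binds forming mineral (mm10 chromosome 5, 104299171 to 104311469), had 158, 105, 145, 101 and 95.6 CPM in the 24 h libraries, against 0.464, 0.164, 1.54, 1.10 and 1.07 CPM in the 3 h libraries. Slc13a5, the citrate transporter of bone cells and not on the list, had 10.6, 6.96, 10.7, 7.27 and 10.5 CPM in the 24 h libraries, against 1.03, 0.382, 0.721, 0.979 and 0.820 CPM in the 3 h libraries, a log2 fold change of 3.54 ± 0.23. Both genes were low in all 5 libraries at 3 h. Panx3, a channel of maturing chondrocytes and osteoblasts, rose by 2.20 ± 0.10, Smpd3, whose loss leaves mouse bone undermineralised, by 2.42 ± 0.09, and Alpl, the tissue phosphatase that clears the mineral inhibitor pyrophosphate, by 1.61 ± 0.11. Genes that hold mineral back rose too: Mgp by 1.34 ± 0.07, Enpp1, which makes pyrophosphate, by 1.05 ± 0.08, and Ank, which exports it, by 0.42 ± 0.07. The phosphate carriers Slc20a1 and Slc20a2 differed by 0.10 ± 0.07 and -0.04 ± 0.05 (adjusted p = 0.29 and 0.57). On the osteoblast list 15 of 24 measured genes were higher and 5 lower. The falls included the transcription factors Msx2 at -1.91 ± 0.10, Dlx3 at -1.12 ± 0.14 and Twist1, an inhibitor of Runx2, at -0.67 ± 0.07.

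Joint genes were called in both directions. Of 20 members, 5 were higher, 1 was lower and 14 were not called, beside 19.1% higher and 18.7% lower over all genes. Gdf5, the growth factor that marks the joint interzone, had 60.4, 70.4, 60.0, 83.7 and 74.1 CPM in the 24 h libraries, against 99.2, 93.6, 82.2, 93.4 and 102 CPM in the 3 h libraries, a fall of 0.43 ± 0.09. Gdf6, Nog, Osr1, Osr2, Erg and Creb5 differed by at most 0.12 in either direction, and their adjusted p-values lay between 0.19 and 0.97. Dcx rose by 1.31 ± 0.10 and the matrix gene Abi3bp by 1.20 ± 0.15. Most tendon and fibrous tissue genes rose, with 21 of 28 higher and 1 lower. Prelp and Aspn, small matrix proteoglycans, rose by 2.05 ± 0.11 and 1.81 ± 0.07, Tnmd, the tendon gene tenomodulin, by 1.34 ± 0.11, Eln, elastin, by 1.40 ± 0.08, and Scx, the tendon transcription factor, by 0.91 ± 0.09.

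Limb patterning genes moved the other way. Of 48 measured members of 52, 36 were lower and 3 higher, with a median of -0.74. Over all genes 18.7% were lower and 19.1% higher. Dlx2, a homeobox gene of the distal ectoderm and mesenchyme that is not on this list, had 0.605, 0.170, 0.702, 0.715 and 0.172 CPM in the 24 h libraries, against 5.46, 5.95, 4.79, 6.36 and 6.68 CPM in the 3 h libraries. No library of either time came near the other time, and its change of -3.62 ± 0.30 was the largest fall among the genes named by size. Msx1, which marks undifferentiated distal mesenchyme, fell by 1.22 ± 0.08, Lhx9 by 1.09 ± 0.05, Tbx3 by 1.02 ± 0.08, Alx4 by 1.36 ± 0.10, Prrx2 by 0.85 ± 0.07 and Hmga2, a growth-promoting chromatin protein, by 0.81 ± 0.06. Tbx5, which specifies the forelimb, differed by -0.07 ± 0.04 (adjusted p = 0.21). Tbx15 rose by 0.37 ± 0.05. Fgf4, a growth factor of the apical ridge in the limb and of muscle at later stages, had 1.69, 1.92, 1.29, 3.46 and 2.12 CPM in the 24 h libraries, against 0.773, 0.109, 0.360, 0.245 and 0 CPM in the 3 h libraries, a rise of 2.74 ± 0.50 at a low level. Of 32 measured Hox genes of 40 entries, 11 were lower and 1 higher. At a minimum count of 30, which leaves low-count genes out of the test, 6 were lower. Hoxd13, the gene of digits, fell by 0.37 ± 0.07, Hoxd12 and Hoxd11 differed by -0.07 ± 0.07 and -0.06 ± 0.07 (adjusted p = 0.42 and 0.50), and Hoxc13, known from hair and nail, fell by 2.43 ± 0.36.

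The signals that run patterning fell in part, and within each pathway ligands, targets and inhibitors did not all move alike. On the Wnt list 25 of 48 measured genes were lower and 13 higher, beside 18.7% lower and 19.1% higher over all genes. Wnt6, a ligand of the limb ectoderm, had 9.37, 3.73, 11.9, 7.93 and 4.94 CPM in the 24 h libraries, against 30.1, 30.9, 35.6, 48.8 and 40.3 CPM in the 3 h libraries, a change of -2.29 ± 0.22. Wnt7b fell by 1.75 ± 0.27 and Wnt9b by 3.44 ± 0.51, and all 3 are ectodermal ligands. The basal epidermal genes described below fell as well, and their part in these falls was not tested. The canonical targets Axin2 and Lef1 fell by 1.01 ± 0.10 and 1.32 ± 0.10. Secreted inhibitors moved both ways: Sfrp5, Sfrp1 and Dkk3 rose by 2.22 ± 0.25, 0.74 ± 0.07 and 0.77 ± 0.07, while Wif1 fell by 0.87 ± 0.07. Of 17 measured retinoic acid genes, 8 were lower and 4 higher. Stra6, the cell's uptake receptor for retinol, fell by 1.37 ± 0.09, Aldh1a2, which makes retinoic acid, by 0.82 ± 0.08, its receptor Rarb by 0.82 ± 0.14, and the degrading enzymes Cyp26a1 and Cyp26b1 by 1.82 ± 0.29 and 0.66 ± 0.06. On the Bmp list 12 of 37 genes were lower and 9 higher, and the median of -0.02 was near the -0.01 over all genes. The ligand Bmp7 and the targets Id1, Id2 and Id3 fell by 0.43 ± 0.06, 0.41 ± 0.06, 0.71 ± 0.07 and 0.71 ± 0.07, Bmp4 differed by -0.06 ± 0.08 (adjusted p = 0.63), and the antagonist Chrd rose by 0.75 ± 0.10.

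Fgf and Tgf-beta genes rose more often than they fell. Of 26 measured Fgf genes, 17 were higher and 3 lower, with Fgf7 at 1.30 ± 0.12, Fgfr1 at 0.47 ± 0.04 and the decoy receptor Fgfrl1 at 0.71 ± 0.06. The paired targets of the pathway parted, since Etv5 rose by 1.03 ± 0.06 and Etv4 fell by 0.47 ± 0.11. Of 25 Tgf-beta genes, 15 were higher and 3 lower. Ctgf, a matrix growth factor that also answers to cell stretch, had 97.2, 88.1, 101, 102 and 109 CPM in the 24 h libraries, against 24.8, 23.9, 22.9, 25.6 and 27.3 CPM in the 3 h libraries, a rise of 2.00 ± 0.07. Cyr61, its relative, rose by 1.35 ± 0.07, and the latency proteins Ltbp2 and Ltbp3 by 1.43 ± 0.11 and 1.01 ± 0.06.

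Imprinted genes formed a group of high and rising RNAs. Of 29 members, 22 were higher and 1 lower, with a median of 0.50. H19, a non-coding RNA of growth control, had 13200, 14270, 13660, 13790 and 16130 CPM in the 24 h libraries, against 8036, 7499, 8092, 8441 and 7653 CPM in the 3 h libraries. Every 24 h library exceeded every 3 h library, and the change was 0.84 ± 0.05. Igf2, its neighbour, rose by 0.50 ± 0.06, Zim1 by 1.44 ± 0.07, Meg3 by 1.03 ± 0.09, Dlk1, an inhibitor of Notch and fat cell formation, by 0.89 ± 0.06, Plagl1 by 0.77 ± 0.08 and the cell cycle inhibitor Cdkn1c by 0.51 ± 0.08. Nnat was the member that fell, by 0.47 ± 0.06. Igf1, the other insulin-like ligand and not imprinted, rose by 1.00 ± 0.08.

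Cell division genes fell without exception at the G2/M step. All 45 measured genes of that list were lower at 24 h, their groups did not overlap in any of the 45 (12.9% of all genes were lower without overlap), and the median was -1.22. Ccnb1, cyclin B1 (mm10 chromosome 13, 100778650 to 100786570), had 51.8, 53.1, 47.6, 54.9 and 50.3 CPM in the 24 h libraries, against 127, 138, 118, 119 and 135 CPM in the 3 h libraries, a change of -1.30 ± 0.06. Kif2c, a motor that releases chromosomes from the spindle, fell by 1.57 ± 0.06, Cenpe by 1.35 ± 0.06, Tpx2 by 1.29 ± 0.06, and Bub3 by 0.31 ± 0.06. Of 40 genes of G1/S and DNA replication, 39 were lower and none higher, with a smaller median of -0.59. Ccne1 was the exception, at 37.8 ± 2.1 CPM at 24 h and 33.3 ± 3.4 CPM at 3 h (adjusted p = 0.071). Of 26 measured genes of cell cycle control, 9 were higher and 10 lower, with a median of -0.02. Among them Cdkn1a, the p21 inhibitor, rose by 0.91 ± 0.07 and Ccnd3, a D-type cyclin, by 0.62 ± 0.06, while Mycn fell by 0.73 ± 0.09. Of 27 measured histone genes of 61 on the list, 19 were lower and none higher. The lower count was 5 at a minimum count of 30 and 31 with no filter on low counts or in DESeq2. These settings test other numbers of histone genes than the 27, so the counts are not shares of the same set. Most histone messages lack a poly-A tail.

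Mitotic genes are known to share a promoter element, the CHR, and CCAAT boxes, and the windows of a pair of these genes show how they differ. The sequences are RefSeq promoter windows of build GRCm38.p6, 250 bases before to 50 bases after the annotated start, with TTTGAA and CCAAT on either strand in capitals. Top2a, the topoisomerase of chromosome condensation, lies at chr11:99024140-99024439 on the minus strand, and Ccnb1 at chr13:100786437-100786736 on the minus strand.
Top2a: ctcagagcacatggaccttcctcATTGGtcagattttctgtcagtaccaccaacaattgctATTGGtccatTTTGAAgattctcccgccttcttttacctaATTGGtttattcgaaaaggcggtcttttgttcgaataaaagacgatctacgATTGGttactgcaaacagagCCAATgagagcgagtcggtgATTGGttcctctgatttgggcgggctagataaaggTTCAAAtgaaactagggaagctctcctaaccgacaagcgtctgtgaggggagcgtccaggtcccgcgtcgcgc
Ccnb1: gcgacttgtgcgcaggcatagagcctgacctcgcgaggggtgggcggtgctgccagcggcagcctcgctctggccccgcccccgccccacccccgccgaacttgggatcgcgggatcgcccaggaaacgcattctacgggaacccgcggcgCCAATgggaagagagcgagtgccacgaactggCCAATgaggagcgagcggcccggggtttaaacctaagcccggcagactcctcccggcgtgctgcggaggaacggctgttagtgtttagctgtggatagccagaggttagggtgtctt
The Top2a window held TTTGAA 2 times, 179 and 23 bases before the start, and CCAAT 6 times, while the Ccnb1 window held CCAAT 2 times and no TTTGAA. No capitals overlap. Of the 45 G2/M genes, 39 had a window in RefSeq, and TTTGAA occurred in 28 of them (71.8%), against 6 of 33 G1/S genes (18.2%) and 5466 of all 27025 genes with a window (20.2%). CCAAT occurred in 29 of the 39 (74.4%), in 22 of the 33 G1/S genes (66.7%) and in 41.1% of all genes. A gene counts if any of its windows holds the letters, and a match is a description of the window and not a site of binding.

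Muscle genes rose as a block. Of 41 measured sarcomere genes of 47, 35 were higher and none lower, with a median of 1.34. Myh8, the perinatal myosin heavy chain, had 265, 296, 275, 276 and 229 CPM in the 24 h libraries, against 79.9, 84.5, 83.6, 101 and 70.5 CPM in the 3 h libraries, a change of 1.68 ± 0.09. Myh3, the embryonic chain, rose by 1.43 ± 0.07 and Mylpf, the fast light chain, by 1.58 ± 0.07. Of 33 measured genes of excitation and calcium release, 26 were higher and 1 lower. Chrna1 and Chrnd, subunits of the acetylcholine receptor of the nerve and muscle junction, rose by 1.50 ± 0.08 and 1.68 ± 0.10, and the calcium release channel Ryr1 by 1.23 ± 0.08. Of 25 measured regulators, 14 were higher and 2 lower. The progenitor gene Pax7 differed by 0.12 ± 0.10 (adjusted p = 0.42), Myf5 and Myod1 rose by 0.52 ± 0.11 and 0.35 ± 0.07, Myog, which starts differentiation, by 0.90 ± 0.07, and Mymk, the fusion protein myomaker, by 1.36 ± 0.09. Pax3, of migrating precursors, fell by 1.47 ± 0.35 at under 2 CPM.

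The vascular genes split. Of 38 endothelial genes, 20 were lower and 6 higher, with a median of -0.33. Plvap, the diaphragm protein of fenestrated capillaries, had 6.83, 6.05, 5.50, 8.22 and 11.1 CPM in the 24 h libraries, against 45.0, 42.7, 45.6, 59.2 and 49.1 CPM in the 3 h libraries. Aplnr, the apelin receptor of veins and sprouting vessels, fell by 2.41 ± 0.12. Tek and Flt4 fell by 0.90 ± 0.12 and 0.89 ± 0.12, and Cdh5, the cadherin of all endothelium, by 0.55 ± 0.07. Some genes that rose are known from arteries. Gja5 and Gja4, arterial gap junction proteins, rose by 1.12 ± 0.09 and 0.56 ± 0.12, and Dll4, the Notch ligand of arteries and tip cells, by 0.54 ± 0.13. Sox7 and Cd93, which are not restricted to arteries, rose by 0.51 ± 0.10 and 0.35 ± 0.07. Arterial genes were not tested as a set. Gja5 had 55.1, 58.7, 56.1, 62.6 and 48.2 CPM in the 24 h libraries, against 27.1, 26.9, 20.7, 26.8 and 27.6 CPM in the 3 h libraries, with no overlap. The level of a vessel gene moves with the number of endothelial cells as well as with their state, and their parts were not tested. Red cell genes fell, with 13 of 20 measured members of 25 lower and 2 higher, among them the embryonic globin Hbb-y at -0.79 ± 0.15 and the membrane protein gene Epb42 at -2.14 ± 0.43.

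**Figure D3:**
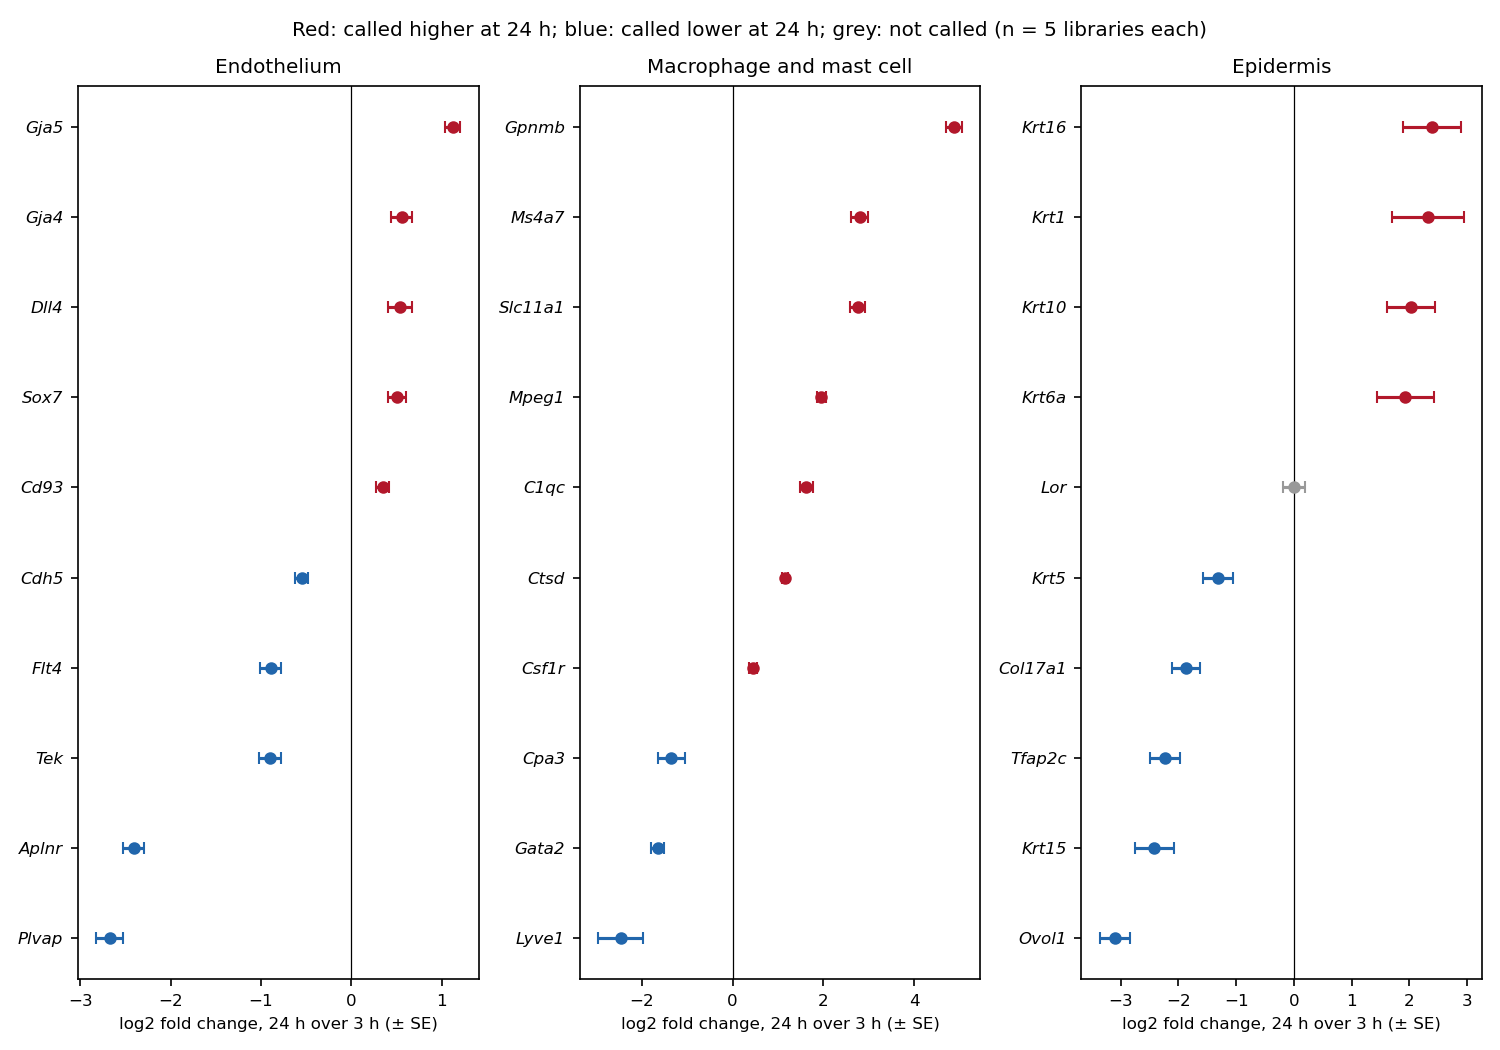
Log2 fold change of 24 h over 3 h (horizontal axis) with SE for selected endothelial, immune and epidermal genes; red was called higher, blue lower and grey not called, with 5 libraries at each time. Each cell type held genes on both sides of 0, such as Gja5 at 1.12 and Plvap at -2.68 in endothelium.

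Macrophage genes rose, but not all of them. Of 34 measured members of 38, 25 were higher and 2 lower. Gpnmb, a glycoprotein of lysosome-rich macrophages and also of osteoblasts, had 37.3, 52.4, 39.8, 44.8 and 41.4 CPM in the 24 h libraries, against 2.11, 1.31, 1.29, 1.90 and 0.631 CPM in the 3 h libraries, a rise of 4.88 ± 0.18. Ms4a7 rose by 2.80 ± 0.19, Slc11a1, a metal transporter of phagosomes that is not on the list, by 2.75 ± 0.17, Mpeg1 by 1.96 ± 0.10, C1qc by 1.63 ± 0.14 and Ctsd, a lysosomal protease, by 1.16 ± 0.06. Csf1r, the receptor that defines the lineage, rose by 0.44 ± 0.09, a smaller change than these. Lyve1, carried by resident macrophages and lymphatic vessels, fell by 2.46 ± 0.50 at under 4 CPM. Of 7 measured genes of other leukocytes, of 23 on the list, none was higher and 3 were lower, among them the mast cell genes Cpa3 at -1.35 ± 0.30 and Gata2 at -1.65 ± 0.14; Gata2 is also an endothelial gene.

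In the epidermis basal genes fell, while the count for differentiation genes depended on a single library. Of 29 basal genes, 22 were lower and 1 higher, with a median of -1.10, and their sum was 610.4, 363.4, 800.8, 543 and 474.2 CPM in the 24 h libraries, against 874.7, 851.8, 1100, 1169 and 1097 CPM in the 3 h libraries. Krt15 fell by 2.42 ± 0.34, Krt5 by 1.31 ± 0.26, and the ectodermal factor Tfap2c by 2.24 ± 0.26. Ovol1, a repressor that ends keratinocyte proliferation and is on neither epidermal list, fell by 3.10 ± 0.26. Of 19 measured differentiation genes of 32, 6 were higher and 1 lower, but without 24 h replicate 3 the counts were 4 higher and 4 lower, and without the libraries of 1 sex 7 higher and 3 lower. Their sum was 147.2, 53.3, 349.2, 164.5 and 97.5 CPM in the 24 h libraries, against 92.6, 85.1, 117.2, 154.9 and 130.2 CPM in the 3 h libraries, and the groups overlapped. Krt10, a keratin of the first suprabasal layer, had 18.7, 7.41, 57.0, 20.4 and 9.25 CPM in the 24 h libraries, against 5.98, 3.88, 5.87, 5.81 and 6.05 CPM in the 3 h libraries, a rise of 2.03 ± 0.42. Krt1, its partner, ran between 3.73 and 105 CPM at 24 h and between 3.55 and 15.2 CPM at 3 h, the groups overlapped, and its rise of 2.32 ± 0.62 was not called by limma-voom (1.72, adjusted p = 0.10) or once Y-linked reads entered as a covariate (2.08, adjusted p = 0.0566). Krt16 and Krt6a, keratins of activated epidermis, rose by 2.40 ± 0.50 and 1.93 ± 0.50, and Lor, of the cornified layer, differed by less than 0.01 (adjusted p = 0.99). The differentiation genes called higher numbered 3 in limma-voom and with the Y-linked covariate, and 10 with all 15 control libraries or with no filter on low counts. Replicate 3 at 24 h was the highest of its group and replicate 2 the lowest for both kinds of gene.

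Nerve-associated genes fell in part. Of 21 measured genes of Schwann cells and melanocytes, 14 were lower and 2 higher. Ednrb, an endothelin receptor of neural crest cells, had 6.59, 6.56, 6.08, 11.7 and 8.33 CPM in the 24 h libraries, against 31.6, 34.8, 36.2, 38.8 and 37.8 CPM in the 3 h libraries, a change of -2.19 ± 0.14. Sox10, the defining factor of these cells, fell by 1.26 ± 0.11 and Gfra3 by 2.08 ± 0.18. S100b rose by 2.64 ± 0.16, and this gene is also made by chondrocytes. Of 24 measured neuron genes, 6 were lower and 4 higher, near the 18.7% lower and 19.1% higher over all genes. Among them Tubb3 stood at -0.96 ± 0.14. Ntrk3, the receptor of neurotrophin 3, rose by 1.44 ± 0.14.

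Genes of the amino acid response fell. Of 30 genes of this response, which the factor ATF4 drives, 20 were lower and 1 higher at 24 h, with a median of -0.44. Atf3 had 7.07, 8.60, 9.71, 6.67 and 7.75 CPM in the 24 h libraries, against 31.7, 30.8, 23.8, 29.0 and 27.5 CPM in the 3 h libraries, a change of -1.84 ± 0.11. Trib3, a feedback inhibitor, fell by 1.24 ± 0.16, Asns, asparagine synthetase, by 0.74 ± 0.09 and the amino acid exchanger Slc7a5 by 1.17 ± 0.10. Atf4 RNA differed by 0.02 ± 0.08 (adjusted p = 0.85). Of 20 aminoacyl-tRNA synthetases, 15 were lower and none higher, and the largest falls were 0.60 ± 0.07 for Aars and 0.57 ± 0.07 for Cars. Among 25 heat shock genes 5 were lower and 4 higher, a share near the background, and 2 were higher without 24 h replicate 2 or without 3 h replicate 1, 4 or 5: Hspa1b fell by 1.29 ± 0.12 and Cryab, a small heat shock protein of muscle, rose by 1.72 ± 0.09. Reads of Hspa1b may be divided with the near-identical Hspa1a. Of 29 measured immediate early genes, 12 were lower and 6 higher. Over all genes 18.7% were lower and 19.1% higher, so the higher share was near the background. Jun fell by 0.55 ± 0.07, Klf2 and Klf4 rose by 0.72 ± 0.11 and 0.60 ± 0.06, and Egr1 differed by 0.36 ± 0.16 (adjusted p = 0.077). Cyp1a1, an enzyme induced by aryl hydrocarbon receptor ligands, had 2.60, 3.45, 4.97, 2.32 and 2.58 CPM in the 24 h libraries, against 14.2, 14.7, 31.9, 36.4 and 8.58 CPM in the 3 h libraries, a change of -2.73 ± 0.34.

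ATF4 is known to act through the C/EBP-ATF element, and the windows of Asns and Trib3 show the letters TGATGNAA, on either strand, in capitals. The Asns window lies at chr6:7693160-7693459 and the Trib3 window at chr2:152344011-152344310, both on the minus strand of GRCm38.p6 and taken from RefSeq.
Asns: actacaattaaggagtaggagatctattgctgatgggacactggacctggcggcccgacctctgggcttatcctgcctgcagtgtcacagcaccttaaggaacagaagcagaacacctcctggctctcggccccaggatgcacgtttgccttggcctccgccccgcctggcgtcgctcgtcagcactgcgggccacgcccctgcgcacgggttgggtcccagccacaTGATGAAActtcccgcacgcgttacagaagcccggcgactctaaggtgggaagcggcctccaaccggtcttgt
Trib3: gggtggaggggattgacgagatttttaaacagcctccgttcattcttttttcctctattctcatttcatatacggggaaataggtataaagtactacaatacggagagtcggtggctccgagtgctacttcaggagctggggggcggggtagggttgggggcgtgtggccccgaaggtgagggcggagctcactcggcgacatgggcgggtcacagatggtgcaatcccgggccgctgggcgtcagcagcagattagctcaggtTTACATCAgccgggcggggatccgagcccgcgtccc
The match starts 23 bases before the annotated start in Asns and 14 bases after it in Trib3. TGATGNAA occurred in 9 of 26 amino acid response genes with a window (34.6%) and in 5 of 12 aminoacyl-tRNA synthetases with a window (41.7%), against 4.51% of all genes with a window and 1 of 39 G2/M genes (2.56%).

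Glycolysis and hypoxia genes gave counts that depended on single libraries. Of 41 genes, 4 were higher and 4 lower at 24 h. Without 24 h replicate 5 the counts were 3 higher and 11 lower, and without 24 h replicate 2 they were 9 higher and 4 lower. The summed level was 4574, 4467, 4990, 5842 and 7846 CPM in the 24 h libraries, against 6049, 5798, 5645, 6503 and 6119 CPM in the 3 h libraries. Slc2a1, the glucose transporter GLUT1, had 58.0, 52.7, 79.1, 86.7 and 145 CPM in the 24 h libraries, against 106, 101, 102, 104 and 95.2 CPM in the 3 h libraries. Its change was -0.27 ± 0.19 (adjusted p = 0.27) and became -0.56 (adjusted p = 0.000511) without replicate 5. Vegfa, the main growth factor of vessels, had 114, 94.9, 129, 121 and 234 CPM at 24 h, against 113, 113, 99.1, 104 and 96.8 CPM at 3 h (0.40 ± 0.17, adjusted p = 0.074). Pkm and Gapdh, enzymes of glycolysis, fell by 0.44 ± 0.09 and 0.51 ± 0.09, and Ddit4, a stress inhibitor of growth signalling, by 0.67 ± 0.14. Ldha, lactate dehydrogenase A, differed by 0.01 ± 0.13 (adjusted p = 0.94). Replicate 5 at 24 h also held the most haemoglobin reads of its group, at 0.251% against 0.119% to 0.149% in the other 4, and the part of either in the result was not tested.

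**Figure D4:**
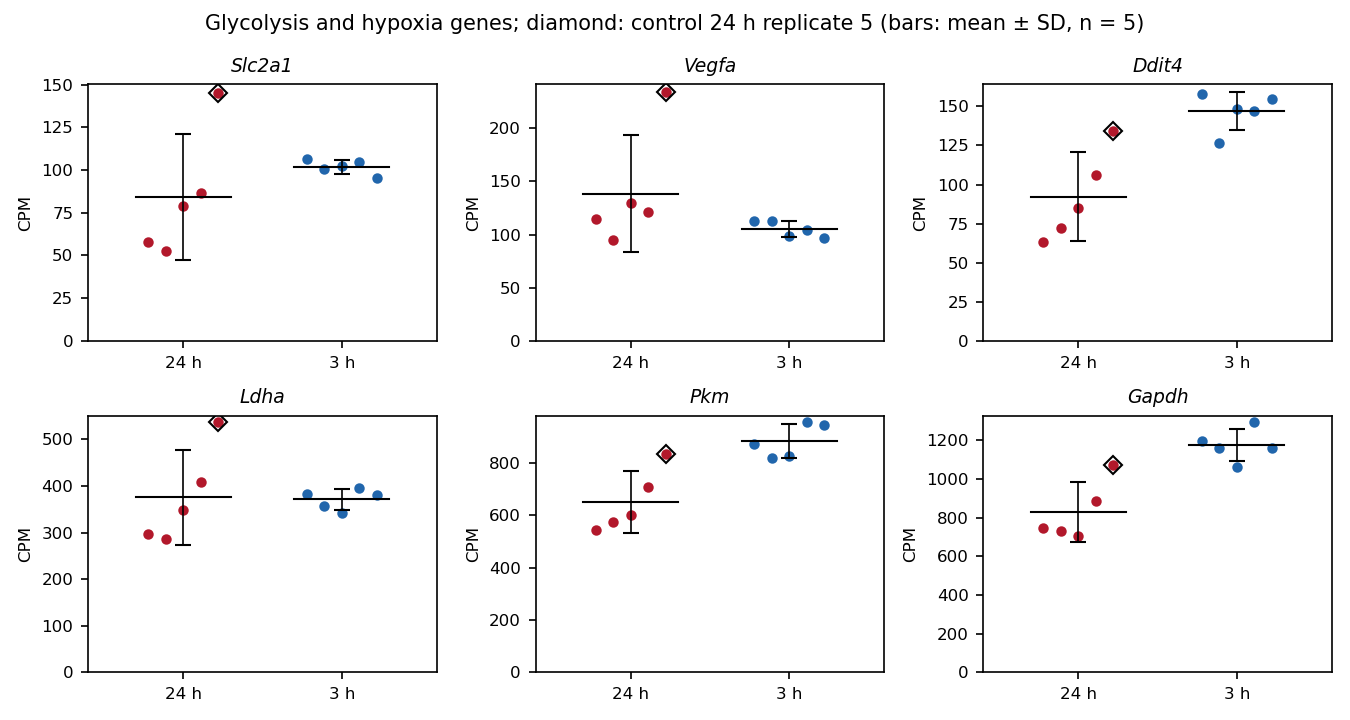
TMM-scaled CPM (vertical axes, starting at 0) of 6 glycolysis and hypoxia genes in each control library at 24 h (red, left; the diamond marks replicate 5) and at 3 h (blue, right), with mean and SD of 5 libraries. Replicate 5 was the highest 24 h library for all 6 genes, as for Slc2a1 at 145 CPM against 52.7 to 86.7 CPM in the other 4.

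Genes of cholesterol synthesis, lipid transport and the clock were called higher more often than lower. Of 26 genes of cholesterol synthesis and uptake, 15 were higher and none lower, with Lss, a cyclase of sterol synthesis, at 0.56 ± 0.07, and the count was 9 without the libraries of 1 sex and 9 with the Y-linked covariate. Of 29 measured genes of lipid transport and storage, 15 were higher and 1 lower. Abca1, the cholesterol exporter, rose by 0.67 ± 0.07, Scd1, a fatty acid desaturase, by 0.74 ± 0.07 and Cd36, a fatty acid carrier of macrophages, muscle and vessels, by 1.61 ± 0.16. Of 22 clock genes, 11 were higher and 1 lower, among them Clock at 0.61 ± 0.09, Npas2 at 1.28 ± 0.22 and Bhlhe41 at 1.34 ± 0.16. Both times of harvest are single points of a daily rhythm. Over all genes 19.1% were called higher and 18.7% lower. Ribosomal protein genes were called lower in 12 of 83, a smaller share than over all genes. Respiratory chain genes and their assembly factors were called lower in 26 of 93. The medians were -0.09 and -0.12. Both counts hung on single libraries: the ribosomal count was 6 without 3 h replicate 4, 7 without 24 h replicate 1 and 19 without 3 h replicate 2, and 24 with library totals only. The respiratory count was 15 without 3 h replicate 4, 17 without 24 h replicate 1 or 3 or without 3 h replicate 1 or 5, and 12 without the libraries of 1 sex.

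The second day of culture was compared with the first by testing the difference of the 2 changes over the 15 control libraries (3, 24 and 48 h). Of 17103 genes, 1883 (11.0%) differed, with the first-day change above the second-day change in 934 (5.46%) and below it in 949 (5.55%), and both changes use the 24 h libraries. For 44 of the 45 G2/M genes the first-day change differed from the second-day change, and 6 were higher and none lower at 48 h than at 24 h, where 2677 of all 16445 genes were called (16.3%), 9.71% higher and 6.57% lower. For Ccnb1 the mean level was 127 ± 9.0 CPM at 3 h, 51.5 ± 2.8 CPM at 24 h and 49.8 ± 3.1 CPM at 48 h. Psrc1, a spindle gene, fell by 1.12 ± 0.09 on the first day and rose by 0.83 on the second. Nexn, an actin-binding protein of muscle, rose by 1.68 ± 0.06 on the first day, and its second-day change was -0.11. For cartilage matrix the first-day change differed from the second-day change in 18 of 24 genes, and 19 of 24 were called higher and none lower at 48 h than at 24 h. Ibsp rose on both days, by 7.12 and 2.60, to 728 ± 70.6 CPM at 48 h, and the difference of these changes was 4.49 ± 0.32. The hedgehog target Ptch1 rose by 0.95 on the first day, its second-day change was 0.16, and the difference was 0.76 ± 0.14 (adjusted p = 0.00082). Col1a1, which rose by 0.67 on the first day, rose by 1.44 on the second. Arc, an immediate early gene, fell by 0.83 on the first day and rose by 3.02 on the second. Its first-day call was lost with all 15 control libraries in the fit (adjusted p = 0.0583) and without 3 h replicate 4 (adjusted p = 0.0539).

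The change over the first day was measured again in libraries that share none with the control set. In the cultures with 1 µM bisphenol AF, a fluorinated analog of bisphenol A, 6587 of 16663 genes (39.5%) differed between 24 h and 3 h, of which 3291 were higher (19.8% of those tested) and 3296 lower (19.8%). The labels of 1 of these libraries, 1 µM 3 h replicate 5, also name another compound and dose, and without it 6190 genes were called. Of 16257 genes tested in both sets, 5043 were called with the same sign in both, which is 77.2% of the calls at 1 µM and 81.3% of the control calls. Of 6201 control calls, 6160 had the same sign at 1 µM and 41 the opposite sign. The log2 fold changes correlated across genes with r = 0.884, a description, since genes are not independent replicates. No gene of 17495 showed a change under 1 µM bisphenol AF that differed from the control change in edgeR's test with Benjamini-Hochberg adjustment; 446 had an unadjusted p under 0.05 in edgeR and 452 in limma-voom, and the smallest adjusted p was 0.9999. Among the named genes, Ibsp rose by 6.80 at 1 µM and by 7.12 in control, Kif2c fell by 1.44 at 1 µM and by 1.57 in control, and Gpnmb rose by 4.95 at 1 µM and by 4.88 in control. The glycolysis and hypoxia list of 41 genes showed 2 higher and 20 lower at 1 µM, against 4 higher and 4 lower in control. Without control 24 h replicate 5 the control counts were 3 higher and 11 lower. Over all genes 19.8% were higher and 19.8% lower at 1 µM, and 19.1% and 18.7% in control. The test of the difference between the changes called none of these genes.

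**Figure D5:**
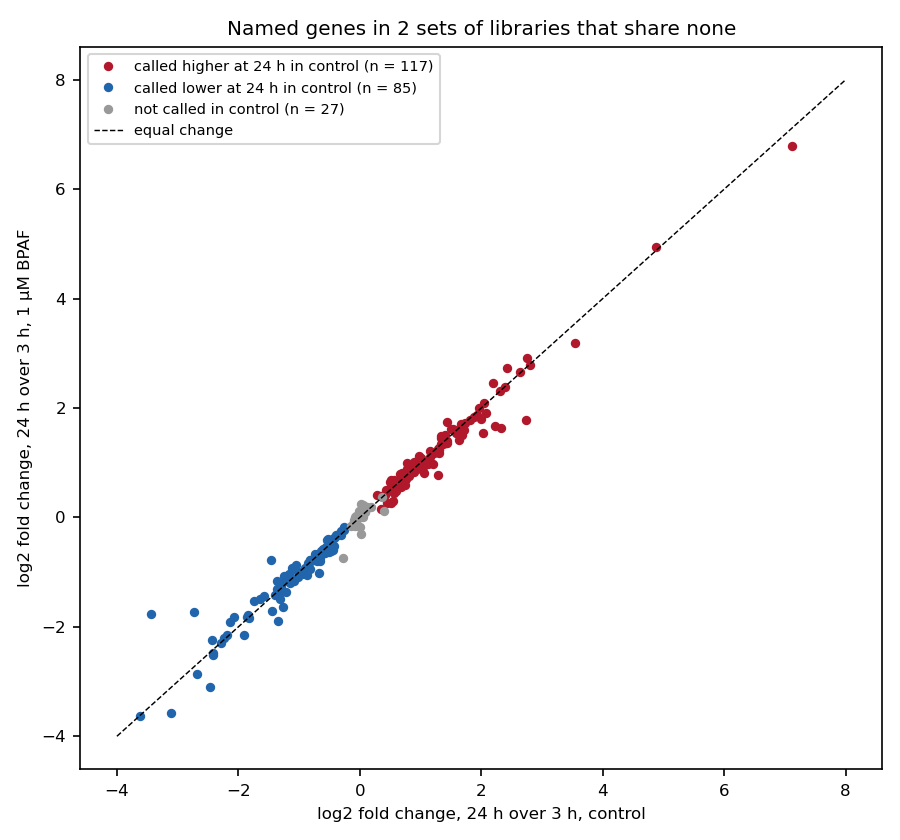
Log2 fold change of 24 h over 3 h at 1 µM bisphenol AF (vertical axis) against the same change in control (horizontal axis), with the line of equal change. The 229 genes plotted are named genes picked for the text. Red was called higher in control, blue lower and grey not called. The sets share no library, and the points lay along the line.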

How the data were processed

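Each deposited table holds, per the file headers, unnormalized counts of reads for every gene and library, with gene lengths and the authors' log2 fold changes and p-values. The submitters' processing notes name mm10 as genome build and list DESeq2, HTSeq 0.6.1, STAR 2.5 and CASAVA 1.8; their settings are not given in the sources used here. The authors' log2 fold changes and p-values served only to count their calls. The counts of the control and 1 µM tables were joined by identifier into 33390 genes, of which 30207 were listed for the control 24 h and 3 h pair. A gene was listed in a table only with at least 2 reads over it, and other entries were read as 0. Names were the deposited ones, except for 24 symbols that had been turned into dates, which were replaced by those of a reference list of gene names. Reads of near-identical or overlapping genes may be divided in ways the sources do not describe.

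Counts were fitted in edgeR 4.0.16 (R 4.3.3) with TMM scaling, filterByExpr (minimum count 10, minimum total 15) and its quasi-likelihood test, using only libraries of the groups compared and no covariate, and p-values were adjusted by Benjamini-Hochberg over all genes tested. Alternatives used limma 3.58.1 (voom), DESeq2 1.42.0, other scalings and filters, a replicate block, and left-out libraries. In simulated counts with 16481 genes, 30%, 62.5%, 85.7% and 100.0% of genes changed by 1.25, 1.5, 2 and 4-fold were called. Only 50, 48, 49 and 44 tested genes carried these changes, far fewer than the 6227 genes called here. The adjusted cutoff was therefore stricter in the simulation, and its shares do not give the detection rate of this comparison. The part of the series, the 60 gene lists (1473 entries) and the tests were chosen with earlier results of these data known. Named genes are list members and anchor genes taken by rule: all members of lists with up to 20 measured genes, and in longer lists up to 8 called members with the smallest p, up to 4 in the rarer direction, those with the largest rise and fall and the 3 most abundant, besides the 15 largest rises and falls at a mean of at least 2 CPM and, in the contrast between days, the 10 with the smallest p and the 10 with the largest difference. Not every gene so named is printed.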

Additional observations from a re-analysis of the deposited data

Results flagged for a closer look

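A library was marked where the gap to its nearest neighbour within its group of 5 was above Dixon's critical value for 5 samples (0.71). This was tested in 580 groups of 5 values, and 28 were marked. Chance alone marks about 1 in 20 groups, so the number is near what chance gives. Levels are CPM.

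Of the 28, 8 fell on 24 h replicate 5. It was the highest 24 h library for Vegfa (233.6, others 94.9 to 129.4), Cyr61 (106.2, others 85.68 to 87.86), Msx1 (72.24, others 51.48 to 55.14) and Hspa1a (2.986, others 1.301 to 1.693). It was the lowest for Creb3l2 (455.2, others 491.2 to 501.1). Its summed levels were the highest for the red cell list (2729, others 1420 to 1711), the G2/M list (2181, others 1974 to 2018) and the immediate early list (1114, others 907.2 to 954.3).

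Among the other 24 h libraries, replicate 3 was the highest for Krt10 (56.98, others 7.408 to 20.38) and Wif1 (43.52), and the lowest for Runx2 (53.06) and Sfrp1 (74.41). Replicate 4 was the highest for Shox2 (98.09), the summed matrix enzymes (2861) and the summed Igf list (6372). Replicate 1 was the highest for Smpd3 (62.88) and replicate 2 for Ucma (2.092, others 0.7605 to 0.9535).

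Among the 3 h libraries, replicate 3, whose Y-linked reads were near 0, was the lowest for Aldh1a2 (52.41), Cyr61 (32.75), Gja5 (20.7) and Msx1 (116.6). Replicate 4 was the highest for Col3a1 (1882) and the summed tendon and fibrous list (6301, others 5687 to 5718). Replicate 5 was the highest for Gdf6 (26.74) and Hapln3 (2.964) and the lowest for Fn1 (862). Replicate 2 was the lowest for Krt10 (3.875) and the highest for Nexn (28.71).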

How the results depend on the processing

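Over 20 alternatives the number of genes called between 24 h and 3 h in control stayed within 1.5 times the count of 6227, from 4333 without the 3 libraries of 1 sex to 6432 in DESeq2. It was 5582 to 6399 when 1 library was left out, 5039 with the Y-linked covariate, 6250 in limma-voom, 6071 with all 15 control libraries in the fit and 6370 with library totals only, where the median log2 fold change of all genes was -0.033 instead of -0.009. Whether the replicate numbers pair the samples was not settled. Deviations of same-numbered libraries correlated between -0.0778 and 0.113, and not every library correlated best with its own number. The fit with the replicate number as a block called 5876 genes. The contrast between days gave 1369 to 1911 genes when 1 library was left out and 1838 with the block. The 1 µM comparison gave 5994 to 6391 genes when 1 library was left out and 6834 with the block, and no alternative called a gene as differing between 1 µM and control. This was checked for 230 of the named genes, those picked for the text. Of these, 203 were called, 200 kept their call and direction in every alternative and none reversed. The exceptions were Ucma (2.90, adjusted p = 0.0526) and Krt1 (2.08, 0.0566) with the Y-linked covariate, Krt1 in limma-voom (1.72, 0.102), and Arc, whose adjusted p was 0.0583 with all 15 control libraries and 0.0539 without 3 h replicate 4. Some genes without a call gained one: Slc2a1 without 24 h replicate 5 (-0.56, adjusted p = 0.000511), Gli3 without 24 h replicate 4 (-0.22, 0.0216), Egr1 without that library (0.48, 0.0097) or without the filter, and Vegfa without the filter, without 24 h replicate 2 or without the libraries of 1 sex (0.40 to 0.56). In the simulation 30% of 1.25-fold changes were called, but few genes were changed there, so that share does not hold for this comparison. Smaller changes may still have been missed.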

Other observations

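Further lists hold biology not described above. Cell adhesion changed in both directions, with 13 of 37 measured genes higher and 10 lower at 24 h, on a list that also holds integrin-binding proteins. Itga10 and Itga11, collagen-binding integrin chains of cartilage and of mesenchyme, rose by 2.08 ± 0.12 and 1.02 ± 0.06 on the log2 scale, and Itga7, the laminin receptor of muscle, by 1.28 ± 0.15. Itga3, the laminin receptor of epidermis, fell by 1.40 ± 0.13, Itga4 by 0.57 ± 0.09 and Fn1, fibronectin, by 0.27 ± 0.05. Of 33 measured matrix enzymes and inhibitors, 13 were higher and 3 lower. Mmp9, the gelatinase of osteoclasts and macrophages, rose by 1.54 ± 0.09, Timp2 by 0.72 ± 0.06 and the aggrecanase Adamts5 by 0.60 ± 0.07. Axon guidance genes were called higher in 15 of 63 and lower in 15 of 63, and Notch genes in 5 and 4 of 21. Both lists stood near the 19.1% higher and 18.7% lower over all genes.

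Stress and survival lists are read against the background of 19.1% of genes higher and 18.7% lower. Apoptosis genes were higher in 3 of 29 and lower in 6, with Pmaip1, a death inducer, at -1.04 ± 0.16 and the protector Bcl2 at 0.41 ± 0.05. Targets of p53 were higher in 5 of 29 and lower in 10. Genes of the antioxidant factor Nrf2 were higher in 3 of 24 and lower in 6, and without the libraries of 1 sex the lower count was 3 on the Nrf2 and on the apoptosis list. The higher count of the Nrf2 list was 1 without 24 h replicate 5, without 3 h replicate 3, without the libraries of 1 sex, with the covariate and with library totals only. Glucocorticoid-responsive genes were higher in 3 and lower in 8 of 16, with Fkbp5 at -0.38 ± 0.06. Of 21 measured inflammation genes 5 were higher and 3 lower, with 8 higher without 3 h replicate 3 or 5, 2 with the Y-linked covariate and 3 without the libraries of 1 sex. Cxcl14 fell by 1.15 ± 0.11 and Vcam1 by 0.52 ± 0.06. The 13 mitochondrially encoded genes had log2 fold changes between -0.32 and 0.71, without a call.

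Pericyte and smooth muscle genes were higher in 6 of 15 measured and lower in 1. Acta2, smooth muscle actin, rose by 1.02 ± 0.07 and Cspg4 by 0.97 ± 0.06, while Pdgfrb differed by -0.10 ± 0.06.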
